A study of Mus musculus with 1152 samples.

Results

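Lymphatic endothelial cells (LECs) can respond to interferons only through cell-surface receptors, and the 7 genes described here encode the 4 chains of the type I and type II interferon receptors (Ifnar1, Ifnar2, Ifngr1 and Ifngr2) and the 3 kinases bound to them (Jak1, Jak2 and Tyk2). They were chosen by name as 7 of the 23168 genes of the deposited table, and all 7 were in it. The cells were LECs of the nasopharyngeal lymphatic plexus (NPLP), a lymphatic bed through which cerebrospinal fluid leaves the skull, from c57bl/6 mice of a single group labelled as aged, which were more than a year old and for which no treatment is given. The study states that nasopharyngeal mucosa of several mice of both sexes was pooled. Cells positive for CD31 and podoplanin (PDPN) were sorted, and single-cell libraries were made with Smart-seq3, a method that reads whole transcripts. Of 4 genes of chromosome Y, 3 had a read in 0 of the cells analysed. Ddx3y had a read in 4 cells, which also had reads of Xist. These reads do not show cells of male mice among those analysed. No label names the animal of a cell, and the cells analysed, 56.9% of those labelled, therefore form 1 pooled sample without replicates; no test between groups was possible, and no adult mice were analysed here.

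Type I interferons, the alpha and beta interferons made by most infected cells, bind a receptor of IFNAR1 and IFNAR2, whereas interferon gamma, made by lymphocytes, binds a receptor of IFNGR1 and IFNGR2. The chains have no enzyme activity of their own. TYK2 is held by IFNAR1, JAK2 by IFNGR2, and JAK1 by IFNAR2 and IFNGR1. When ligand brings the chains together the kinases phosphorylate STAT transcription factors. Complexes with STAT2 and IRF9 bind the interferon-stimulated response element (ISRE), and STAT dimers bind the gamma-activated site (GAS).

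In the mouse genome (GRCm38, the assembly also called mm10) 3 of the 4 chain genes are neighbours on the plus strand of chromosome 16: Ifnar2 at chr16:91372783-91405589, Ifnar1 at chr16:91485238-91507441 and Ifngr2 at chr16:91547072-91565623. Between Ifnar2 and Ifnar1 lies Il10rb, at chr16:91406164-91425834, which encodes a chain of the type III interferon receptor. Ifngr1 is at chr10:19591949-19610229 on the plus strand. The kinase genes are apart from one another, with Jak1 at chr4:101152367-101265282 on the minus strand, Jak2 at chr19:29251828-29313080 on the plus strand and Tyk2 at chr9:21104068-21131243 on the minus strand.

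The sequences before the starts of the 4 chain genes are shown because the paired chains differed widely in level, and Ifit1, a gene induced by type I interferon, is shown for contrast. Each is the 100 bases upstream of the RefSeq start (GRCm38.p6, on the strand of the gene), with CpG dinucleotides in capitals.
Ifnar1, chr16:91485115-91485214: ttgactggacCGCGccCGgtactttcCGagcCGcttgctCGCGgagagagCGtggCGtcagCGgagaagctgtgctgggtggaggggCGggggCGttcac
Ifnar2, chr16:91372683-91372782: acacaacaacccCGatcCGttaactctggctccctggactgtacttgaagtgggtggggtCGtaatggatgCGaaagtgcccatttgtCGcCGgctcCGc
Ifngr1, chr10:19591849-19591948: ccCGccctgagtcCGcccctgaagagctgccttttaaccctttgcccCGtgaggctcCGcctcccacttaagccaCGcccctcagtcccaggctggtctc
Ifngr2, chr16:91546959-91547058: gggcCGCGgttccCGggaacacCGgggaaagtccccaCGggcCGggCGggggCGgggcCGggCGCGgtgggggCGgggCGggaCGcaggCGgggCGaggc
Ifit1, chr19:34640789-34640888: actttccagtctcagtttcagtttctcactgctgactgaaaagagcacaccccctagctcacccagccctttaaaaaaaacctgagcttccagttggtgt
The stretch before Ifngr2 held 16 CpG, that before Ifnar1 12, that before Ifnar2 7 and that before Ifngr1 5, whereas that before Ifit1 held 0. Over promoter windows of 250 bases before to 50 after the start, the ratio of observed to expected CpG of the 7 genes was 0.600 to 0.947 with a median of 0.843. The median was 0.384 over all 32851 windows and 0.270 over the 25 windows of the type I interferon targets listed here. The 7 promoters were thus among the CpG-rich kind, in both the genes of high and of low level.

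The ISRE core (GAAA, any 2 bases, GAAA) was searched on both strands of the same windows and was found in 0 of the 7 genes. It was found in 3.99% of all 27025 genes, in 11 of 22 type I targets, in 7 of 13 type II targets and in 2 of 8 transducers. Examples that carry the motif (capitals, written on the strand of the gene) are given with 10 bases on either side.
Ifit1, chr19:34640775-34640804: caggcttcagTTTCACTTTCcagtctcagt
Isg15, chr4:156200865-156200894, minus strand: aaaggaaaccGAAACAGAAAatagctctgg
Stat2, chr10:128270266-128270295: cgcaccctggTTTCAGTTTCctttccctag
The GAS letters TTCNNNGAA, which read the same way on both strands, were found in 2 of the 7 genes and in 9.55% of all genes. In Ifnar2 the match lay near the far end of the window, and in Ifnar1 it began 5 bases before the start and ran across it.
Ifnar2, chr16:91372559-91372587: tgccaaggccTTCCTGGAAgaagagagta
Ifnar1, chr16:91485210-91485218: TTCACGGAA
These are matches of letters in a short window, and binding was not measured.

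The cells carried lymphatic and endothelial markers, of which only CD31 and podoplanin had been sorted for. All 8 lymphatic and endothelial genes were detected in 87.7% or more of cells. Pecam1, which encodes CD31, was found in 99.2% and Pdpn in 94.8%. Prox1, the transcription factor that specifies lymphatic fate and was not sorted for, was found in 97.1%. Of 6 genes listed for blood endothelium, 5 were also detected in 10% of cells or more, with Emcn in 96.2%, Aqp1 in 96.04%, Plvap in 65.9% and Cd34 in 35.5%, while Flt1 was found in 2.44%; their part in the results was not tested. Of 6 haematopoietic genes the highest share was 9.60%, for Fcer1g, and Ptprc, which encodes the pan-leukocyte protein CD45, was detected in 0.915%. Of the epithelial list 3 of 5 genes were in the table, with shares of at most 0.610%; Epcam and Krt18 had a read in 0 cells, where the exact interval allows up to 0.561% of cells with a read. The 5 mural genes reached at most 3.51%, and of 5 fibroblast genes only Dcn, in 30.03%, was above 2.44%. Depth varied from 7046 to 10727631 reads per cell with a median of 148202, and detected genes from 2006 to 7679. Detection therefore is also given after thinning each cell to 20000 reads, for which 88 shallower cells were left out. Shares carry exact (Clopper-Pearson) 95% intervals that cover counting error only, since reads include PCR copies and cells share animals.

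Every one of the 7 genes was expressed in the plexus, but the receptor chains were not detected in equal numbers of cells. At least 1 read was found in 7 of 7 genes in 10% of cells or more, a level that 41.7% of all genes of the table reached; their median share was 48.3% of cells, against 5.03% over all genes. In no cell were all 7 genes at 0. The most frequent number detected in a cell was 4, in 28.4% of cells, while 15 cells (2.29%) had reads of all 7 and 23 had reads of only 1.

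Ifnar2, the chain that carries the main ligand-binding and signalling surface of the type I receptor, was detected in 84.6% of cells (95% interval 81.6 to 87.3) and Ifnar1, its partner, in 48.3% (44.4 to 52.2). After thinning the shares were 76.1% (72.3 to 79.5) and 34.5% (30.6 to 38.6). The intervals of the chains were apart at either depth. The deposited value, the natural log of 1 plus reads per 10000, averaged 0.97 ± 0.70 (SD over all cells) for Ifnar2, with a median of 1.06 and a highest value of 2.78. For Ifnar1 it averaged 0.33 ± 0.51, with a median of 0 and a highest value of 2.82. These log values are not divided by length and describe each gene on its own.

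The same imbalance was found for the receptor of interferon gamma. Ifngr1, the ligand-binding chain, was detected in 71.8% of cells (68.2 to 75.2) and Ifngr2, the chain needed for signalling, in 24.1% (20.9 to 27.5). After thinning the shares were 57.7% (53.6 to 61.8) and 17.1% (14.1 to 20.4). Ifngr2 was the least often detected of the 7 genes, and its deposited value averaged 0.15 ± 0.35. That of Ifngr1 averaged 0.69 ± 0.67.

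Among the kinases, Jak1, which serves many cytokine receptors, was the most widely detected of the 7 genes. It was found in 90.5% of cells (88.05 to 92.7) and, after thinning, in 79.2% (75.7 to 82.5). Jak2, which also serves growth hormone and erythropoietin receptors, was detected in 37.04% of cells (33.3 to 40.9) and Tyk2, which also serves interleukin-12 receptors, in 37.2% (33.5 to 41.02). The thinned shares of these 2 kinases were 23.8% (20.3 to 27.5) and 26.6% (22.99 to 30.4), with intervals that overlapped.

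**Figure D1:**
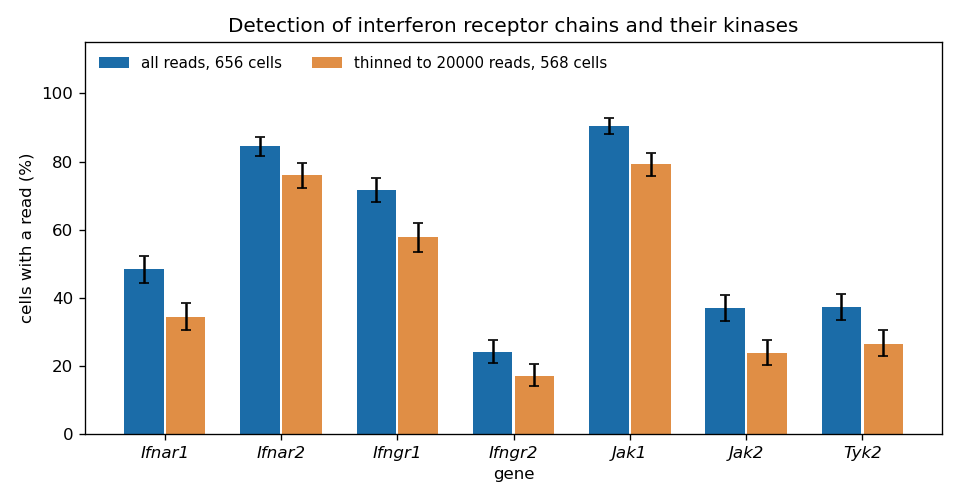
Share of cells (%) with at least 1 read of each gene, at full depth and after thinning to 20000 reads. Error bars are exact 95% intervals; Jak1, Ifnar2 and Ifngr1 stand above 50% at either depth and the other 4 genes below it.

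The share of cells with a read was higher in deeper cells for each gene. With the cells ranked by reads and cut into 4 equal parts, Ifnar1 was detected in 35.98% of the shallowest part and 62.2% of the deepest, Ifnar2 in 71.95% and 93.9%, and Jak1 in 82.3% and 95.7%. The mean log value of Ifnar1 was 0.38 in the shallowest part and 0.29 in the deepest, and that of Ifngr1 was 0.71 and 0.69. An Ifnar1 share of 48.3% is thus tied to these depths and is no count of cells that lack the gene.

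Because reads of whole transcripts scale with transcript length, levels were compared between genes as reads per 10000 per kb of exon. On this scale the 7 genes fell into a high and a low set. The high set was Ifnar2 at 0.707, Ifngr1 at 0.547 and Jak1 at 0.381 reads per 10000 per kb, and the low set was Ifnar1 at 0.107, Jak2 at 0.0805, Tyk2 at 0.0723 and Ifngr2 at 0.0699. The median over the 20210 genes with a length was 0.0182, so that the high set stood at percentiles 93.1 to 96.01 and the low set at 74.2 to 80.9. The high set holds JAK1 and the 2 chains known to hold it, and the low set holds TYK2 and JAK2 with the 2 chains known to hold them. The sets were drawn from these same levels of 7 genes, and whether this match is more than chance was not tested.

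As there were no replicate samples, the spread was read over 12 blocks of 96 consecutive cell numbers (18 to 83 cells each), which follow the cell numbers in the labels and are not stated to be plates or animals. Ifnar2 ran from 0.555 to 0.913 reads per 10000 per kb over the blocks with a median of 0.731, and Ifnar1 from 0.0692 to 0.183 with a median of 0.107. The Ifnar2 and Ifnar1 ranges did not overlap. Ifngr1 ran from 0.345 to 0.637 with a median of 0.562, and Ifngr2 from 0.0383 to 0.129 with a median of 0.0675. These ranges did not overlap either, and the lowest Ifngr1 value was in block 10. Jak1 ran from 0.294 to 0.489, Jak2 from 0.0472 to 0.134 and Tyk2 from 0.0459 to 0.110, so that Jak1 also lay above the other kinases in each block.

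The level of Ifnar2 was 6.59 times that of Ifnar1 over all cells, and 4.74 to 12.9 times in single blocks. This ratio was 3.70 when levels were not divided by length and 10.3 when reads were summed over cells, which gives the deepest cells the most weight. Ifngr1 stood 7.82 times above Ifngr2, with 4.27 to 14.3 times in single blocks. Jak1 stood 4.73 times above Jak2 and 5.27 times above Tyk2, and these orders held in 12 of 12 blocks. Across the gap between the sets, Jak1 was 3.55 times Ifnar1 and was the higher in 12 of 12 blocks. Within the sets several neighbours were not separated: Ifnar2 was above Ifngr1 in 11 of 12 blocks, Ifnar1 above Jak2 in 9, Jak2 above Tyk2 in 9 and Tyk2 above Ifngr2 in 5.

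**Figure D2:**
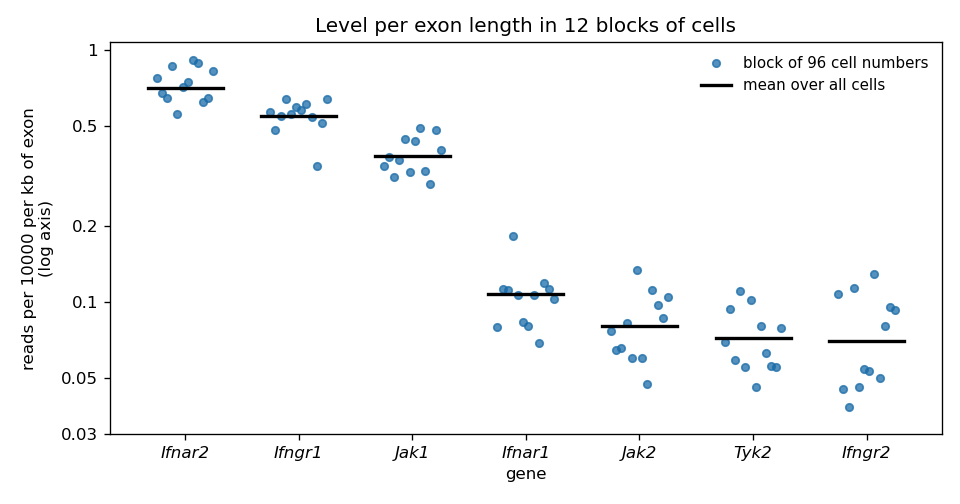
Level of each gene in reads per 10000 per kb of exon (log axis), ordered by the mean over all cells (black line), with 1 point for each of 12 blocks of 96 consecutive cell numbers. Points of Ifnar2, Ifngr1 and Jak1 all lie at 0.294 or above and points of the other 4 genes at 0.183 or below.

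Blocks 8 and 9 were small, with 18 and 20 cells, and far deeper than the rest, with median reads of 2450279.5 and 2042788.5 per cell against 52583 to 231193 in the other blocks. Without them the ratio of Ifnar2 to Ifnar1 was 6.41 and that of Ifngr1 to Ifngr2 was 7.92. Exons shared with other genes were few: Gm21970 shares 9.46% of the exon length of Ifnar2 on the same strand and 1700084C06Rik shares 8.07% of that of Tyk2 on the other strand, and the latter was listed at 0 in all cells.

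A receptor needs both chains, and single cells with reads of both were counted next. Both Ifnar1 and Ifnar2 were found in 43.9% of cells (40.1 to 47.8). Where 1 chain was missing it was mostly Ifnar1: 40.7% of cells had reads of Ifnar2 alone and 4.42% of Ifnar1 alone, with 10.98% having neither. Ifnar1 was detected in 51.9% (47.6 to 56.1) of the cells with an Ifnar2 read and in 28.7% (20.1 to 38.6) of those without one. At 20000 reads these shares were 36.8% (32.2 to 41.5) and 27.2% (19.9 to 35.5), with intervals that overlapped.

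For the interferon gamma receptor both chains were found in 18.3% of cells (15.4 to 21.5). Ifngr1 alone was found in 53.5% and Ifngr2 alone in 5.79%, and 22.4% of cells had neither. Ifngr2 was thus the chain most often without a read. At 20000 reads both chains were found in 11.1% (8.63 to 13.97) of cells for type II and in 27.99% (24.3 to 31.9) for type I.

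**Figure D3:**
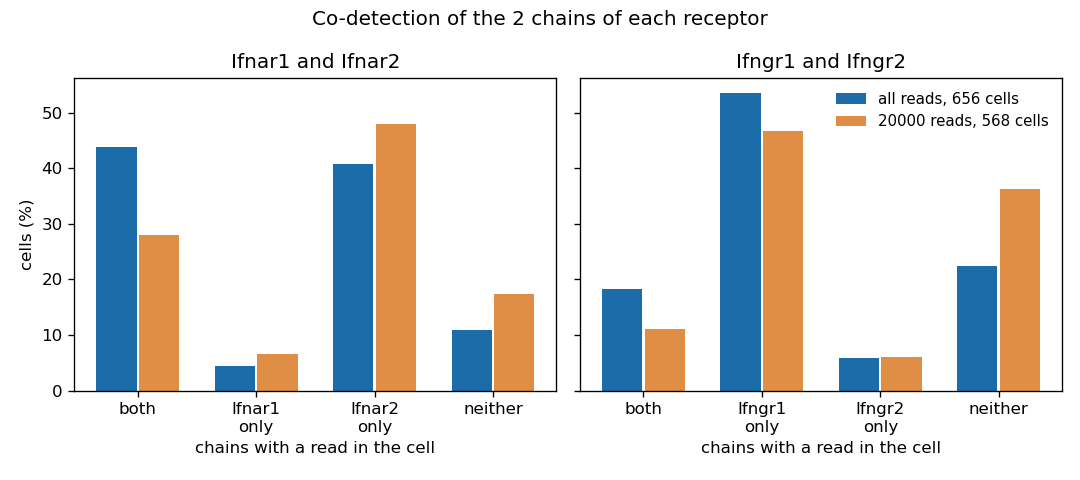
Share of cells (%) with reads of both chains, of 1 chain alone or of neither, for the type I receptor (left) and the type II receptor (right), at full depth and thinned to 20000 reads per cell. Cells with Ifnar2 alone (40.7%) or Ifngr1 alone (53.5%) far outnumber those with the partner alone (4.42% and 5.79%).

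With the kinases added, the full type I set (Ifnar1, Ifnar2, Jak1 and Tyk2) had reads in 19.7% of cells (16.7 to 22.9) and the full type II set (Ifngr1, Ifngr2, Jak1 and Jak2) in 6.86% (5.05 to 9.07). At 20000 reads these were 51 cells (8.98%, 6.76 to 11.6) and 12 cells (2.11%, 1.10 to 3.66), so both shares were lower at equal depth. The type I set was the more often complete at either depth, with intervals apart. Both sets hold Jak1 and were read in the same cells, so the intervals are not independent. Shares were not corrected for exon length, which was greater for Ifnar1 (5940 bases) and Tyk2 (6865) than for Ifngr2 (3767) and Jak2 (5030). The product of the 4 single shares, which is what unrelated detection would give, was 5.53% for the type I set and 1.86% for the type II set at 20000 reads. At 50000 reads the type I set was found in 12.3% against a product of 8.20%, and the type II set in 1.97% against a product of 2.95%. A transcript without a read at this depth may still be present, and protein on the cell surface was not measured.

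The cells were clustered with the steps of the study, without the members and the other interferon genes among the clustering genes, and 5 clusters were found. Cluster 1 (32.3% of cells) had all 6 markers of Ptx3+ capillary LECs raised 1.5 times or more over the other cells and is called Ptx3+ capillary-like. Clusters 3 (16.01% of cells; Fndc1, Reln and Ccl21a) and 4 (12.7%; Ptn, Anxa3 and Stc1) each had 3 of 6 markers of Ptx3- capillary LECs and are both called Ptx3- capillary-like. They had no raised marker of this list in common. The study marks this class by Fndc1 and Ptn, of which Fndc1 was raised in cluster 3 only and Ptn in cluster 4 only. Cluster 4 also had Clu and Nos3 of the downstream-valve list raised, with Cd34 and Vwf of the blood endothelial list and Dcn of the fibroblast list. Cluster 5 (11.7%) had 4 of 7 upstream-valve markers raised (Cldn11, Gata2, Neo1 and Lama5) but not Foxc2, Itga9 or Adm, and Adm was raised in cluster 2. It is called upstream-valve-like, although it also had 3 of 7 markers of the downstream-valve list (Cldn11, Gata2 and Nos3). Cluster 2 (27.3%) had markers of more than 1 LEC class raised and stays unnamed. These were Foxp2, Apoe and Bmp4 (precollecting), Gja4, Clu, Gata2 and Nos3 (downstream valve) and Gata2 and Adm (upstream valve). By fold it was led by Ahsg, Spp1 and Kng2, which were detected in 26.3%, 26.8% and 23.5% of its cells. In the other cells they were detected in 8.39%, 27.9% and 6.08%, so Spp1 was no more widespread in cluster 2. Names were rebuilt from markers and need not hold the cells the study gave them.

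The 7 genes were found in all 5 clusters, and each cluster held reads of each chain and kinase. Thinned to 20000 reads, Jak1 was detected in 75% to 80.7% of the cells of each cluster and Ifnar2 in 72.9% to 85.7%. Of the low set, Ifnar1 was at 29.2% to 47.1%, Ifngr2 at 14.6% to 22.9%, Jak2 at 18.1% to 30.4% and Tyk2 at 23.8% to 32.4%. The highest cluster mean was 1.5 times the lowest or more, with 0.1 reads per 10000 added, for 4 of the 7 genes (Ifnar1, Ifngr1, Jak2 and Tyk2), while 66.4% of 6734 genes not used for clustering passed the same mark. The members' count was near this background and is no result about them.

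At equal depth Ifngr1 had the widest span of shares between clusters, although its fold of 1.66 between cluster means was below that of Jak2 (1.97) and Ifnar1 (1.86) and stood at percentile 50.9 of all genes compared. In the upstream-valve-like cluster it was found in 38.6% (27.2 to 50.97) of thinned cells, against 69.7% (59.01 to 78.97) and 70.6% (58.3 to 81.02) in the Ptx3- capillary-like clusters 3 and 4, whose intervals lay above. The Ptx3+ capillary-like cluster had 54.1% (46.6 to 61.6) and the unnamed cluster 58.1% (50.1 to 65.9). The chains of the type I receptor went the other way: in the upstream-valve-like cluster Ifnar1 was found in 47.1% (35.1 to 59.4) and Ifnar2 in 85.7% (75.3 to 92.9), the highest of the 5 clusters, but with intervals that overlapped those of other clusters. At full depth the picture differed in part. Ifngr1 was found in 66.2% (54.6 to 76.6) of the upstream-valve-like cluster and in 65.6% (58.8 to 71.9) of the Ptx3+ capillary-like cluster. Clusters 3 and 4 were still higher, at 81.9% (73.2 to 88.7) and 81.9% (71.95 to 89.5), but their intervals overlapped that of the upstream-valve-like cluster. Jak2 had a wider span than Ifngr1, from 24.1% (15.4 to 34.7) in cluster 4 to 45.8% (38.9 to 52.7) in cluster 1.

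Within blocks that held at least 5 thinned cells of the upstream-valve-like cluster, the thinned Ifngr1 share was below that of the other cells in 6 of 8 and above it in 2. The blocks split the same few cells of 1 pool, so this describes where the difference lay and adds no support to it. Under 7 other clustering settings and another seed the share of the matching cluster was 33.9% to 39.7%, but 90% to 100% of its cells came from the same cluster, and with 1.5 as the resolution, with 3000 variable genes and with interferon genes left in, 1 other cluster was at or below it. Median depth was 186769 reads in this cluster, within the range of 65272 to 190151 of the others, and shares were compared at equal depth. As all cells are 1 pool, whether the difference would be found again between mice was not tested.

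**Figure D4:**
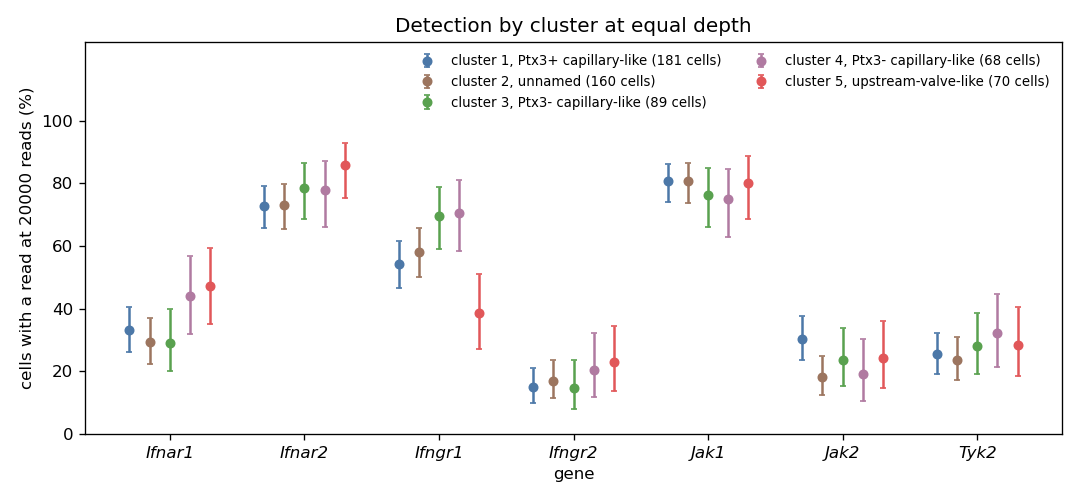
Share of cells (%) with a read of each gene at 20000 reads per cell, by cluster, with exact 95% intervals. For Ifngr1 the upstream-valve-like cluster (38.6%) lies under clusters 3 and 4 (69.7% and 70.6%), and the points of Ifnar1 run from 29.2% to 47.1% with overlapping intervals.

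Across cells the members had only weak rank correlations with one another. Over the thinned cells the 21 pairs had Spearman's rho from -0.0204 (Ifnar1 and Ifngr1) to 0.137 (Ifnar1 and Ifngr2), with a median of 0.0389. The paired chains had a rho of 0.0984 (Ifnar1 and Ifnar2) and 0.0744 (Ifngr1 and Ifngr2), and the chains with their kinases 0.0992 (Ifnar1 and Tyk2), 0.1002 (Ifngr1 and Jak1), 0.0678 (Ifnar2 and Jak1) and -0.0163 (Ifngr2 and Jak2). For comparison, the upper end of the central 95% of the rho values of a member with all genes detected in at least 30% of thinned cells lay at 0.0996 to 0.128, depending on the member. The values of a cell share its library, and each member also had a rho of 0.0726 to 0.239 with the number of genes detected in the thinned cell. In counts this sparse such weak values are descriptions of these libraries.

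The genes most alike in pattern were sought among 3323 genes detected in at least 30% of thinned cells, and the highest rho of any member with any of them was 0.221. Ifngr1 was most like Shisa5 (rho 0.204), Ltbp4 (0.196) and Mmrn1 (0.191), and Jak1 most like Gja1 (0.1999), Igfbp4 (0.195) and Mmrn1 (0.192). Mmrn1, which encodes the lymphatic matrix protein multimerin 1, was the gene that these 2 members shared. With the summed log values of the lymphatic identity genes, which include Mmrn1, Ifngr1 and Jak1 had a rho of 0.224 and 0.202 and the other members -0.0763 to 0.0790. Without Mmrn1 in the sum, an alternative added after seeing the data, Ifngr1 and Jak1 had 0.213 and 0.191 and the others -0.0572 to 0.0870. Jak2 was most like Erf (0.207), Nfkbia (0.1999) and Gem (0.176), of which Nfkbia encodes an inhibitor of NF-kappaB. Ifnar2 was most like Uqcrc1 (0.221), Ifnar1 most like Higd2a (0.182), Ifngr2 most like Stap2 (0.167) and Tyk2 most like Cgrrf1 (0.175).

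Downstream, the level of the receptors in a cell went only weakly with its interferon response genes. With the summed log values of 28 type I targets, the 7 members had a rho of 0.0082 (Ifngr2) to 0.125 (Jak1), whereas the transducers Irf9 and Stat2 had 0.347 and 0.328 and Stat3 had 0.0833, within the range of the members. Irf9 and Stat2 are themselves induced by interferon. Ifnar1 and Ifnar2, the receptor through which the type I targets are induced, had a rho of 0.0638 and 0.0669. With the summed log values of 17 type II targets, Ifngr1 had 0.0230, Ifngr2 0.000777, Jak1 0.131 and Jak2 0.0880.

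**Figure D5:**
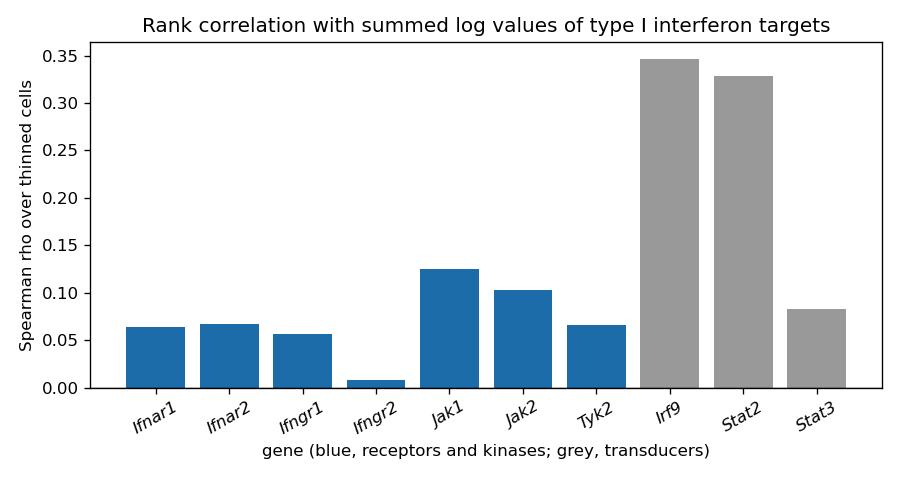
Spearman's rho over thinned cells between each gene and the summed log values of 28 type I interferon targets. The receptor chains and kinases (blue) lie between 0.0082 and 0.125, and of the transducers (grey) Irf9 and Stat2 lie at 0.347 and 0.328 and Stat3 at 0.0833.

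The remaining genes of the pathway were taken as fixed lists, written by hand with earlier results of these data known. Counts of detected list genes are therefore descriptions of these lists. Of the type III receptor, Il10rb was detected in 43.3% (39.5 to 47.2) of cells but Ifnlr1, the chain that binds interferon lambda, in 1.52% (0.733 to 2.79), and both in 5 cells (0.762%, 0.248 to 1.77). At 20000 reads 0 cells had reads of both, where the exact interval allows up to 0.647%. Il10rb, which also serves interleukin-10 and interleukin-22 receptors, stood at 0.0787 reads per 10000 per kb, within the range of the low set. Of 21 interferon genes, 1 was in the table, Ifnz, detected in 3 cells (0.457%).

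Of 9 transducers, 8 were detected in 10% of cells or more, a mark that 41.7% of all genes of the table reached. Stat3, which acts after interleukin-6 family cytokines, led with 89.2%, followed by Jak3 with 69.1%, Irf9 with 64.8% and Stat2 with 61.3%. Stat4, which acts after interleukin-12 in lymphocytes, was found in 0.305%. Jak3 is best known from lymphocytes, where it binds the common gamma chain encoded by Il2rg. In these cells Jak3 stood at 0.269 reads per 10000 per kb, and Il2rg was detected in 76.8% (73.4 to 80.01) of cells. The haematopoietic list had a median share of 1.52%. Gm20489 shares 30.5% of the exon length of Il2rg on the same strand. Insl3 shares 7.55% of that of Jak3 and had a read in 3.66% of cells, against 69.1% for Jak3. A part of either count could come from the overlapping gene, which was not tested.

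Of 15 negative regulators, 13 were detected in 10% of cells or more, against 41.7% of all genes. Socs3, an inhibitor of gp130 signalling, was found in 95.7% and Usp18, which displaces JAK1 from IFNAR2, in 47.9% (43.98 to 51.8). Prkd2, a kinase that promotes IFNAR1 uptake, was found in 78.8%, Ptpn1 in 61.9% and Socs1, the main inhibitor of interferon gamma signalling, in 4.88% (3.36 to 6.82). Socs3 is not among the 29 genes listed here as induced by tissue dissociation. With their summed log values it had a rho of 0.767, against 0.317 for Stat3 and 0.126 for Jak2, the highest of the members. The part of dissociation in these levels was not tested.

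Of the type I targets 25 of 28 and of the type II targets 15 of 17 in the table were detected in 10% of cells or more, with median shares of 32.5% and 41.3%. Bst2, which tethers budding viruses, was found in 98.2%, Isg15 in 71.8% and Irf7 in 44.97%; of the type II list Irf1 was found in 87.7%, Psmb8 in 73.9% and Cxcl10 in 2.44%. Of 19 other receptors that signal through JAK kinases 14 reached 10%. Il6st, which encodes gp130, was found in 99.1%, Osmr in 81.3% and Il11ra1 in 71.3%. Per length, Il6st stood at 0.649 reads per 10000 per kb and Il11ra1 at 0.417, close to Ifnar2 and Jak1, and Osmr at 0.178.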

How the data were processed

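The authors aligned Smart-seq3 reads to mm10 with STAR, counted them with featureCounts (Subread) and normalized them with Seurat 4.1.0, after removing cells with under 2000 genes or over 10% mitochondrial reads. The gene annotation, the strand setting and the handling of reads with several matches were not given in the sources used here. The deposited values are described as log2, but they are natural log values of 1 plus reads per 10000: their exponentials minus 1 summed to 10000 in each cell. Whole reads were recovered for 100% of values above 0 within 0.01 reads, with 7046 to 10727631 reads per cell. Reads, not unique molecules, were counted.

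All cells are 1 pooled sample, so no test was made. A gene was detected at 1 read or more. Each cell with at least 20000 reads was thinned to 20000 without replacement. Exon lengths were unions over GENCODE M21 transcripts (GRCm38), and 22224 of 23168 symbols matched 1 gene. Promoter windows came from RefSeq (GRCm38.p6), where 7 of 7 members matched. Clustering used Seurat 5.3.0 in R 4.3.3 with 2000 variable genes less the interferon lists, regression of total reads, mitochondrial share, dissociation and ribosomal scores, 15 principal components and Louvain clustering at the lowest resolution that gave at least 5 clusters. Intervals used scipy 1.17.1. No doublet caller was run, as 1 cell was sorted per well. Reading of values, thinning, folds and correlations were tested on simulated data. Alternatives are given in the closing section.

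Named genes were the members, the genes of the pathway and marker lists, the 3 genes most alike to each member, and genes leading a cluster. The members and lists were chosen with earlier results of these data known. Results for some listed genes are not reported here.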

Additional observations from a re-analysis of the deposited data

How the results depend on the processing

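Detection and complete sets depended on depth. The median share of the 7 members, 48.3%, was 14.2% with a log value above 1 required, 34.5% and 39.2% at 20000 and 50000 reads, and 55.1% in cells with at least 3000 genes. It stayed within its interval with 2 or more reads required, without cells holding a haematopoietic gene, without 4 cells that had reads of Xist and of chromosome Y, and without blocks 8 and 9, an alternative chosen after seeing the data. Reads include PCR copies, and cells with a read of a member held a median of 6 (Ifngr2) to 24.5 (Jak1) reads of it. Requiring 2 reads could therefore hardly move the shares. The complete type I set, 19.7%, was 8.98% and 12.3% at 20000 and 50000 reads, 7.75% at 20000 reads with another seed, also added later, and 24.2% in cells with at least 3000 genes. The type II set, 6.86%, was 2.11%, 1.97% and 2.29% in the first 3 of these. The ratio of Ifnar2 to Ifnar1 moved from 6.59 to 3.70 without division by length and to 10.3 with reads summed over cells. With the longest transcript as length it was 4.74. For Ifngr1 over Ifngr2, 7.82 became 10.4 with the longest transcript and 5.91 without division by length. In the same order Jak1 over Jak2, 4.73, became 6.97 and 6.80, and Jak1 over Tyk2, 5.27, became 5.46 and 5.55. Leaving out 1 block at a time gave 6.36 to 6.90 for Ifnar2 over Ifnar1 and 7.39 to 8.26 for Ifngr1 over Ifngr2. It gave 4.46 to 5.17 for Jak1 over Jak2 and 4.97 to 5.59 for Jak1 over Tyk2. The number of members past 1.5-fold between clusters, 4, was 2 with 0.5 added in place of 0.1, where 23.2% of genes passed, and 3 to 6 under the other settings. The median rho between members, 0.0389, was 0.0181 with detected genes regressed. The count of 36 of 45 receptor, transducer and regulator genes outside the members detected in 10% of cells or more was 36 and 35 under its alternatives. At full depth 41.7% of all genes reached this mark. No paired analysis was possible because all cells belong to 1 group.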
